A study of Mus musculus with 6 samples.

Results

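The genes described here are 32 listed genes of the integrated stress response, of the 32285 genes in the matrices. They comprise 6 enzymes of serine synthesis and mitochondrial one-carbon metabolism, 3 enzymes of asparagine and proline synthesis, 11 cytosolic tRNA synthetases with the tRNA exporter Xpot, 8 transcription factors and stress genes, and 3 genes of membrane or secreted proteins. The list was named by symbol, with earlier results of these data known. The UMIs (unique molecular identifiers, each standing for 1 captured transcript) of these genes were summed over endothelial cells in each library. A cell counted as endothelial with at least 500 genes, at most 10% mitochondrial UMIs and a UMI of at least 3 of Pecam1, Cldn5, Cdh5, Flt1, Esam and Egfl7.

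ATF4 is a transcription factor whose own mRNA is translated more efficiently when translation initiation slows under stress, and whose translation and stability are also raised by the kinase complex mTORC1. It turns on genes that make and import amino acids, charge tRNAs and feed one-carbon units into nucleotide synthesis. In dividing endothelial cells, serine made from glucose is a known source of glycine and of carbon for nucleotides.

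The 6 single-cell libraries came from mice that carry Mfsd2a-CreERT2, a tamoxifen-inducible Cre under a gene of the brain endothelial barrier. WT denotes Mfsd2a-CreERT2 alone and KO denotes Mfsd2a-CreERT2:Pdcd10fl/fl, where tamoxifen deletes the floxed Pdcd10 (Ccm3), a gene of cerebral cavernous malformation. All mice received tamoxifen. Mice of both genotypes were given it on postnatal day (P) 1, with harvest on P6 or on P10, while 2 further KO groups received vehicle or rapamycin, an mTORC1 inhibitor, and were harvested at P9, with no tamoxifen day given. Each group was 1 library. A difference within a pair therefore has no replicate check, and whether a library pooled animals is not stated in the labels.

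Levels are given as CPM, the UMIs of a gene per 1000000 UMIs of the endothelial cells of that library. These are 3′ tags, so a gene is compared with itself across libraries and not with other genes. The rule kept 14165 endothelial cells of 15259 filtered cells and 18568 barcodes, with 857 (KO P6) to 3768 (vehicle) cells and 9883763 to 36629558 endothelial UMIs per library. Markers outside the rule, such as Kdr, Tek and Tie1, summed to 2676 to 3404 CPM in these cells and to 67.7 to 219 CPM in cells with none of the 6 rule markers. The labels name retina as the tissue and the series title names brain. Summed retina markers measured 3.74 to 7.86 CPM in the endothelial cells. At P6, Pdcd10 stood at 104 CPM in WT against 58.4 CPM in KO, and at P10 at 102 against 58.2 CPM. In KO at P9 it measured 44.9 CPM with vehicle and 80.6 CPM with rapamycin, so the rapamycin library stood nearer to WT for the targeted gene.

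Other features of the libraries moved with the groups, and their part in the results was not tested except where values without those cells are given. Mitotic cells made up 6.21% of WT and 8.20% of KO endothelial cells at P6, 2.09% and 6.597% at P10, and 15.96% with vehicle and 4.42% with rapamycin. Pericyte markers (8 of 8 detected) summed to 1142 and 1125 CPM at P6, 1060 and 556 CPM at P10, and 265 and 475 CPM at P9. Astrocyte markers (8 of 8 detected) summed to 133 and 119 CPM at P6, 191 and 129 CPM at P10, and 55.7 and 101 CPM at P9. Red cell markers (5 of 5 detected) summed to 1801 and 2625 CPM at P6, 15540 and 4455 CPM at P10, and 104 and 1704 CPM at P9. Those of choroid plexus summed to 1765 CPM with rapamycin against at most 33.3 CPM elsewhere. Just outside the rule, 16 to 91 filtered cells per library had 2 rule markers, and just inside it 12 to 177 had exactly 3. Libraries shared 0 to 10 barcodes in any pair of libraries.

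ATF4 and its partners bind the C/EBP-ATF response element, whose core is TGATGNAA. Promoters from RefSeq (GRCm38.p6) were found for 28 of the 32 genes. Their 250 bases before the start were searched on both strands. The core lay in 9 of 28 genes (32.1%), against 3.91% of 27025 genes with a promoter in the same table. None of the 6 serine and one-carbon enzymes held it, whereas Asns, Pycr1, Gars, Aars, Tars, Nupr1, Chac1, Slc7a11 and Vldlr did. No match says only that these letters are not in this window. The stretches of Asns and Gars are shown because both genes rose in KO, and those of Pycr1, Chac1 and Slc7a11 to set beside them genes that hold the same core and did not pass, and capitals mark the core as it reads on the strand of the gene.
Asns, chr6:7693214-7693243, minus strand: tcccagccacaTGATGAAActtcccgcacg
Pycr1, chr11:120643808-120643887, minus strand: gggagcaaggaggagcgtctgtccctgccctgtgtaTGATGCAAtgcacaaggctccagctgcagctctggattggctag
Gars, chr6:55037935-55038000, plus strand: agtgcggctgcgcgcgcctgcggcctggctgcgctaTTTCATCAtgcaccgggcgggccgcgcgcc
Chac1, chr2:119351013-119351092, plus strand: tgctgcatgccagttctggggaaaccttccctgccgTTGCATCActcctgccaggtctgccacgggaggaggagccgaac
Slc7a11, chr3:50443617-50443715, minus strand: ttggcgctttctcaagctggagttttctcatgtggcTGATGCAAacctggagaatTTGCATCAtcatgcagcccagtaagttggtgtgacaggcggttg
The Asns core ends 16 bases before the RefSeq start, and the Gars core, on the opposite strand, ends 23 bases before it. In GENCODE, whose Asns gene starts further out, the Asns core lies in an exon of Asns, and the other stretches shown touch no exon. Slc7a11 holds 2 cores facing each other. Their levels in each library are given with the values of each gene.

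Deletion of Pdcd10 was examined by comparing KO with WT at both ages. In edgeR's quasi-likelihood test with age as a term, 5 of the 31 genes tested rose in KO (Phgdh, Asns, Aldh18a1, Gars and Cebpb), 0 fell and 26 did not pass an adjusted p of 0.05. Among all genes 3.05% were called higher and 1.69% lower. The 5 that rose are the first enzyme of serine synthesis, asparagine synthetase, the first enzyme of proline synthesis, glycyl-tRNA synthetase and a C/EBP transcription factor. The median log2 fold change of the 31 genes was 0.32, against -0.01 for all genes tested. Because the list was chosen with earlier results of these data known, the values set beside all genes describe it and are no independent test. At an unadjusted p under 0.05, 18 were higher and 0 lower in edgeR, where 12.9% and 10.4% of all genes were, and DESeq2 called 4 higher and 0 lower after adjustment. The test rests on 4 libraries with 1 residual degree of freedom. With any 1 library left out, which also removes the age term, 0 of the genes passed, and with all 4 libraries but no age term 0 passed as well.

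Within the pairs, more than 1.5-fold was used to describe a difference, among genes with at least 30 UMIs in the pair. At P6, 7 of 31 genes lay above WT past this fold in KO and 2 below it, where 9.31% and 5.76% of all genes were. At P10 the counts were 12 higher and 0 lower, where 11.8% and 10.7% of all genes were. Of these 31 genes, 23 were above their WT level at both ages, 18 of them with counting intervals that exclude a ratio of 1 at both, and 4 were below it at both. Of all genes counted, 37.8% were above WT at both ages, 16.5% with such intervals. With rapamycin at P9 the lean was opposite, with 10 of 32 genes lower and 3 higher past 1.5-fold, where 13.1% and 12.9% of all genes were.

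**Figure D1:**
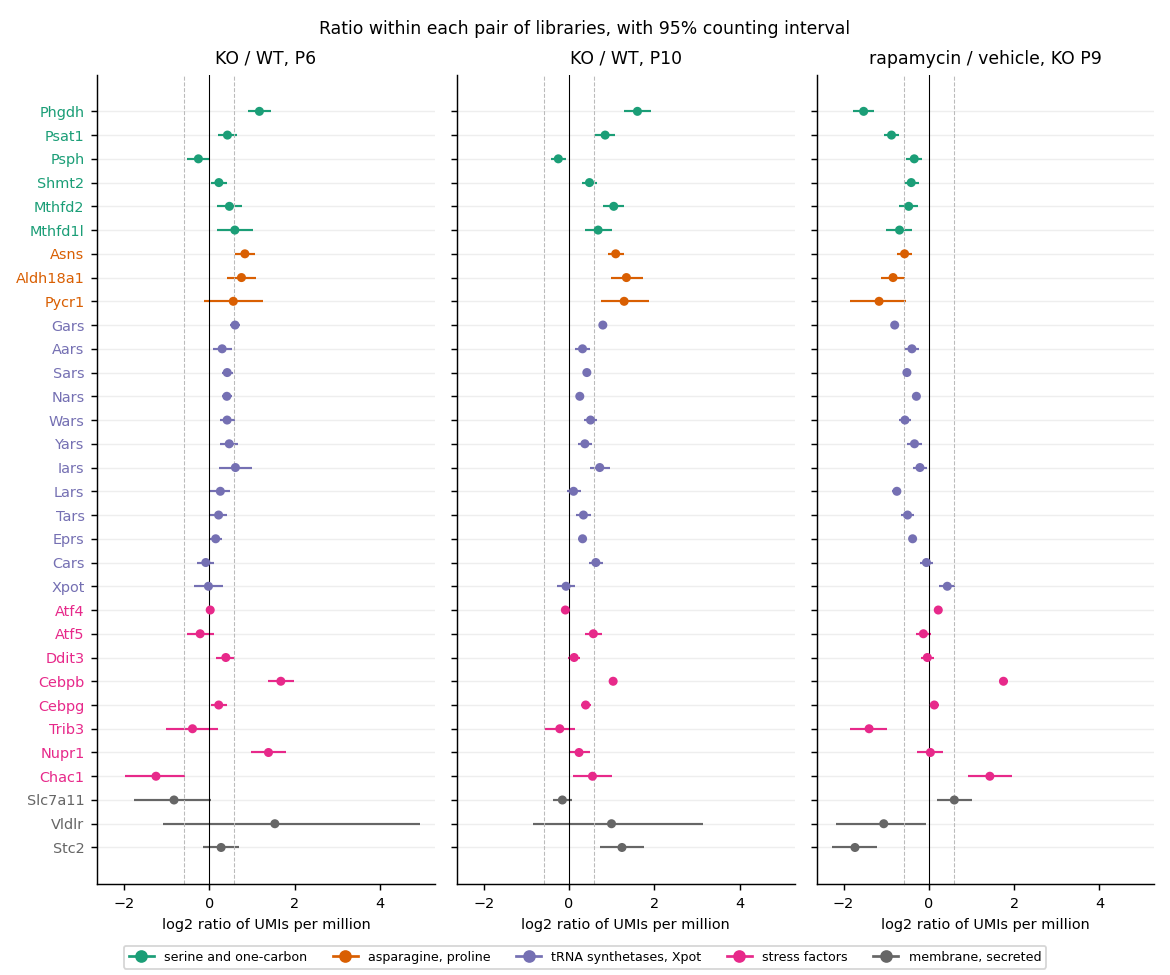
Ratio of CPM on a log2 axis for each gene within the P6, P10 and P9 pairs, with bars for exact 95% counting intervals, which do not cover the spread between animals, and dashed lines at 1.5-fold. Phgdh lies at 2.25 and 3.03 times WT in the KO panels and at 0.347 times vehicle in the rapamycin panel, while Cebpb lies above a ratio of 1 (0 on this axis) in all panels.

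Among the serine synthesis enzymes, Phgdh rose and the later enzymes differed less. Phgdh (chromosome 3, 98313170 to 98339990, GRCm38), which draws carbon from glycolysis into serine, stood at 14.1 CPM in WT against 31.9 CPM in KO at P6, and at 5.06 against 15.4 CPM at P10. The P9 level was 21.9 CPM with vehicle and 7.59 CPM with rapamycin. KO exceeded WT at each age, although KO at P10 stood close to WT at P6. Its log2 fold change with genotype was 1.35 (SE 0.17, edgeR adjusted p = 0.0152). Cells with a Phgdh UMI made up 7.39% of WT and 13.3% of KO endothelial cells at P6.

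Psat1, the aminotransferase that follows Phgdh, measured 26.7 (WT) and 35.8 CPM (KO) at P6 and 11.5 (WT) and 20.7 CPM (KO) at P10; values of further genes follow this order. With vehicle it measured 26.2 CPM and with rapamycin 14.3 CPM. Its genotype fold change was 0.60 on the log2 scale and did not pass (edgeR adjusted p = 0.0832). Psph, the phosphatase that releases serine, went the other way, with 23.2 and 19.4 CPM at P6 and 25.1 and 21.1 CPM at P10. It had the one negative fold change among the 6 enzymes, -0.28 (edgeR adjusted p = 0.263), and measured 20.5 CPM with vehicle and 16.2 CPM with rapamycin.

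The mitochondrial one-carbon enzymes, which carry the serine carbon to formate, leaned upward in KO without passing. Shmt2, which splits serine into glycine and a one-carbon unit, measured 37.7 and 44.0 CPM at P6, 20.4 and 28.5 CPM at P10, and 22.7 and 17.1 CPM at P9. Mthfd2, the next step, measured 15.3 and 21.1 CPM at P6, 9.69 and 20.02 CPM at P10, and 13.9 and 10.0 CPM at P9. Its KO to WT ratio was 2.07 (interval 1.75 to 2.45) at P10 and 1.38 (1.13 to 1.70) at P6. Mthfd1l, which releases formate, measured 7.16 and 10.8 CPM at P6, 6.36 and 10.2 CPM at P10, and 8.95 and 5.56 CPM at P9. In edgeR the adjusted p was 0.195 for Shmt2, 0.0781 for Mthfd2 and 0.111 for Mthfd1l.

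The amino acid synthesis enzymes outside the serine route were higher in KO in all 3 cases. Asns, which makes asparagine and is a textbook ATF4 target, measured 21.8 and 38.9 CPM at P6, 15.6 and 33.2 CPM at P10, and 22.4 CPM with vehicle against 15.1 CPM with rapamycin. Both KO libraries of P6 and P10 lay above both WT libraries. It rose by 0.94 on the log2 scale (SE 0.13, edgeR adjusted p = 0.0205). Aldh18a1, the first enzyme of proline synthesis, measured 10.2 and 17.2 CPM at P6, 3.95 and 10.0 CPM at P10, and 11.6 and 6.49 CPM at P9. Here WT at P6 and KO at P10 stood at about the same level. Its rise of 1.01 (SE 0.21) passed narrowly in edgeR (adjusted p = 0.0495) and not in DESeq2 (adjusted p = 0.126) or with RLE scaling (0.0523). Nor did it pass in edgeR with 4 of 6 endothelial markers (0.0527) or without the 5% of cells with most UMIs (0.0588).

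Pycr1, which completes proline synthesis, is a low gene here, with 27 to 105 UMIs per library. It measured 2.88 and 4.25 CPM at P6, 1.83 and 4.48 CPM at P10, and 2.68 and 1.19 CPM at P9. The P10 ratio was 2.45 (interval 1.67 to 3.64), the P6 interval spanned 1 (0.913 to 2.40), and the genotype fit did not pass (edgeR adjusted p = 0.146).

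**Figure D2:**
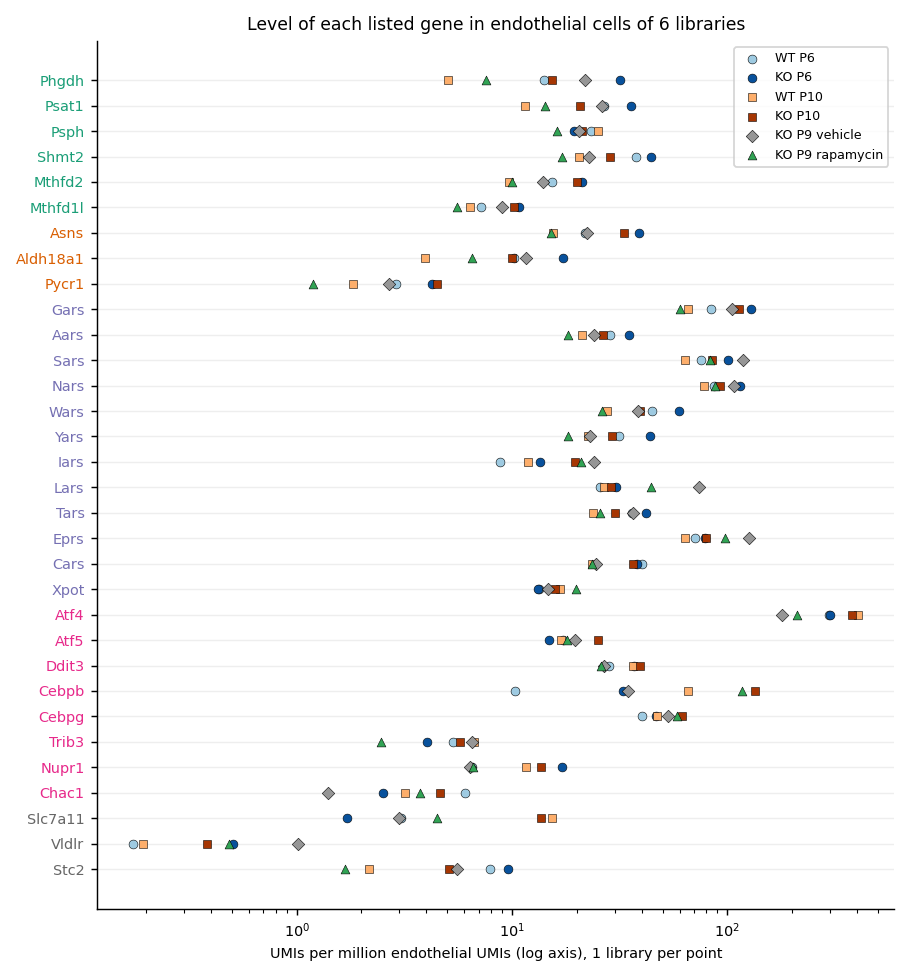
Level of each gene in each of the 6 libraries, in CPM of endothelial UMIs, 1 library per group. KO exceeds WT at both ages for Phgdh, Asns, Aldh18a1 and Gars, and Cebpb is also higher at P10 than at P6.

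The tRNA synthetases load each tRNA with its amino acid. Of 12 genes in this group, Xpot included, Gars rose, 0 fell and 11 did not pass, with a median log2 fold change of 0.29. Gars, which charges glycine tRNA, measured 84.4 and 128 CPM at P6, 65.6 and 113 CPM at P10, and 105 and 60.5 CPM at P9. Both KO libraries of P6 and P10 stood above both WT libraries, and the rapamycin library stood below all others. Its log2 fold change with genotype was 0.67 (SE 0.11, edgeR adjusted p = 0.0270).

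Iars and Cars were the other synthetases past 1.5-fold in a KO and WT pair. Iars, for isoleucine, measured 8.82 and 13.5 CPM at P6, 11.9 and 19.6 CPM at P10, and 24.1 and 20.8 CPM at P9 (edgeR adjusted p = 0.0722 for genotype). Cars, for cysteine, measured 40.3 and 38.0 CPM at P6, 23.6 and 36.5 CPM at P10, and 24.5 and 23.6 CPM at P9. It was thus higher in KO at P10 and not at P6, and its genotype fit had an adjusted p of 0.455 in edgeR.

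Lars, for leucine, was higher in both P9 libraries than in the others, as Iars and Eprs also were. It measured 25.6 and 30.6 CPM at P6 and 26.8 and 28.8 CPM at P10, but 74.0 CPM with vehicle and 44.0 CPM with rapamycin. The P9 libraries were thus both above the other libraries, and harvest day, treatment and library cannot be told apart there. Wars, for tryptophan, measured 44.6 and 59.5 CPM at P6, 27.7 and 39.2 CPM at P10, and 38.6 and 26.2 CPM at P9. Aars, for alanine, measured 28.5 and 35.0 CPM at P6, 21.2 and 26.4 CPM at P10, and 23.997 and 18.2 CPM at P9. Each of the 2 was higher in KO at both ages and did not pass for genotype (edgeR adjusted p = 0.0828 for Wars and 0.243 for Aars).

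Tars, for threonine, measured 35.96 and 41.8 CPM at P6, 23.8 and 30.004 CPM at P10, and 36.3 and 25.7 CPM at P9. Eprs, which charges both glutamate and proline tRNA, measured 71.0 and 78.7 CPM at P6, 63.9 and 79.5 CPM at P10, and 126 and 97.0 CPM at P9. Sars, Nars and Yars, for serine, asparagine and tyrosine, had KO to WT ratios from 1.19 to 1.38 over both ages and rapamycin to vehicle ratios from 0.700 to 0.817. Xpot, which carries tRNA out of the nucleus, did not share the lean, with ratios of 0.985 at P6 and 0.952 at P10, and 1.35 (interval 1.19 to 1.53) with rapamycin.

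Of the 8 stress factors, 1 rose with genotype, 0 fell and 7 did not pass. The Atf4 transcript itself measured 297 and 301 CPM at P6, 405 and 381 CPM at P10, and 180 and 210 CPM at P9. Its genotype fold change was -0.06 on the log2 scale (SE 0.11, edgeR adjusted p = 0.780). ATF4 is regulated largely through translation, which RNA counts do not measure.

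Cebpb, a basic leucine zipper factor of inflammation and stress that can pair with ATF4, was the one gene of this group to pass for genotype. It measured 10.3 and 32.9 CPM at P6, 65.4 and 134 CPM at P10, and 34.7 CPM with vehicle against 117 CPM with rapamycin. KO exceeded WT at each age, and WT at P10 exceeded KO at P6. It rose by 1.27 with genotype (SE 0.17, edgeR adjusted p = 0.0168). With rapamycin it was 3.36 times vehicle (interval 3.14 to 3.60). Cebpb was thus higher in KO than in WT at P6 and P10, and higher with rapamycin than with vehicle in KO at P9. No WT library was harvested at P9. The vehicle level lay below WT at P10, and the rapamycin level below KO at P10. Cells that also carried markers of other types held 19.4% to 53.5% of its UMIs. Without those cells its log2 ratio was 1.07 at P6, 1.09 at P10 and 1.38 at P9, against 1.66, 1.03 and 1.75 with them.

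The other factors gave smaller or uneven differences. Ddit3 (CHOP), a factor of prolonged stress, measured 28.2 and 36.8 CPM at P6, 36.3 and 39.4 CPM at P10, and 26.6 and 26.0 CPM at P9. Atf5 measured 17.3 and 14.9 CPM at P6, 16.9 and 25.1 CPM at P10, and 19.6 and 17.9 CPM at P9. Neither Ddit3 nor Atf5 passed for genotype (edgeR adjusted p = 0.365 and 0.657), and Cebpg, a dimer partner of ATF4, had ratios from 1.09 to 1.31 in the 3 pairs.

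Trib3, a pseudokinase that restrains ATF4 and AKT, measured 5.32 and 4.05 CPM at P6, 6.65 and 5.72 CPM at P10, and 6.52 and 2.47 CPM at P9. It was below WT at both ages with intervals that span 1, and with rapamycin it stood at 0.379 times vehicle (interval 0.278 to 0.509). Chac1, which degrades glutathione, measured 6.02 and 2.53 CPM at P6, 3.18 and 4.65 CPM at P10, and 1.39 and 3.75 CPM at P9. Its ratio was 0.420 (0.255 to 0.672) at P6, 1.46 (1.07 to 2.02) at P10 and 2.69 (1.88 to 3.89) with rapamycin, on 25 to 109 UMIs per library. Without mitotic cells its log2 ratio went from -1.19 to -0.74 at P6 and from 0.54 to 0.23 at P10.

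Nupr1, a small stress-induced nuclear protein, was carried largely by cells with markers of other types. It measured 6.55 and 17.1 CPM at P6, 11.6 and 13.7 CPM at P10, and 6.42 and 6.58 CPM at P9, and did not pass for genotype (log2 0.71, edgeR adjusted p = 0.197). Endothelial cells with at least 2 markers of 1 other cell type held 92.0% and 91.1% of its UMIs at P6, 83.8% and 48.4% at P10, and 48.5% and 83.2% at P9. These cells were 32.4% and 26.0% of endothelial cells at P6, 23.4% and 15.9% at P10, and 7.67% and 17.97% at P9. Without them Nupr1 had 6 and 15 UMIs at P6, 39 and 165 at P10, and 121 and 25 at P9. Its log2 ratios became 1.21 at P6, 1.66 at P10 and -1.29 at P9, and it rose with genotype by 1.61 (edgeR adjusted p = 0.0286).

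The genes of membrane and secreted proteins shared no pattern. Slc7a11, the cystine importer, measured 3.05 and 1.72 CPM at P6, 15.3 and 13.7 CPM at P10, and 2.98 and 4.50 CPM at P9. It was higher at P10 than at P6 in both genotypes, and its genotype fit did not pass (edgeR adjusted p = 0.376). Stc2, a secreted glycoprotein, measured 7.94 and 9.61 CPM at P6, 2.17 and 5.12 CPM at P10, and 5.57 and 1.68 CPM at P9. With rapamycin Stc2 stood at 0.301 times vehicle (interval 0.207 to 0.427), the lowest ratio of the 32 genes. Vldlr, a lipoprotein receptor, had 2 and 5 UMIs at P6, 4 and 9 at P10, and 37 and 11 at P9, which was under the count filter of the fits.

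Rapamycin was compared with vehicle in KO at P9. The 10 genes lower past 1.5-fold were Phgdh, Psat1, Mthfd1l, Aldh18a1, Pycr1, Gars, Lars, Trib3, Vldlr and Stc2, and the 3 higher were Cebpb, Chac1 and Slc7a11. Without mitotic cells Psat1 (log2 ratio from -0.87 to -0.55) and Slc7a11 (from 0.59 to 0.01) were no longer past this fold. In all, 22 of 32 genes were lower and 6 higher with intervals that exclude 1, where 33.3% and 28.9% of all genes were. All 9 enzymes of serine, one-carbon, asparagine and proline synthesis were below vehicle, with ratios from 0.347 for Phgdh to 0.789 for Psph. In the synthetase group 11 of 12 genes were below vehicle, and Xpot was above it. The median log2 ratio of the 32 genes was -0.40, against -0.02 for all genes.

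The genes that rose in KO were then set against the P9 pair, which shares no library with the KO and WT comparison. Phgdh, Aldh18a1 and Gars, 3 of the 5, were lower past 1.5-fold with rapamycin, Asns was lower by less (ratio 0.674, interval 0.593 to 0.766, log2 with the prior count -0.57) and Cebpb was higher. Of 395 genes that rose in the genotype fit and were counted at P9, 61.8% were lower past 1.5-fold with rapamycin, against 12.5% of all genes tested. The share among the 5 genes was thus near that of other genes that rose in KO.

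Age was compared in the same 4 libraries, P10 against P6. Of 31 genes tested in edgeR, 2 rose, 6 fell and 23 did not pass, where 5.14% of all genes rose and 3.23% fell. Phgdh, with a log2 fold change of -1.198 (SE 0.17, edgeR adjusted p = 0.0160), fell with age, and Psat1, Shmt2, Aldh18a1, Wars and Stc2 also fell. Slc7a11 rose by 2.65 (SE 0.24, edgeR adjusted p = 0.00398) and Cebpb by 2.36 (SE 0.17, edgeR adjusted p = 0.00215). Thus Cebpb rose both with age and in KO, whereas Phgdh and Aldh18a1 fell with age and rose in KO. Without mitotic cells 1 of the 6 falls was called, and that of Phgdh became -0.08 (edgeR adjusted p = 0.869). That removal counted mitotic markers over every UMI of a cell. It took out 14.1% and 3.90% of WT cells at P6 and P10, and 19.6% and 12.3% of KO cells. The non-mitotic class described below was set after thinning and keeps some of the cells removed here. In that class Phgdh was lower at P10. There it measured 10.9 and 4.40 CPM in WT at P6 and P10, and 22.1 and 13.1 CPM in KO.

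Mitotic endothelial cells were set against the other endothelial cells of the same library, with library as a block over all 6 libraries. A cell was called mitotic with UMIs of at least 3 of 12 markers, such as Mki67 and Top2a, after thinning to 2000 UMIs. Of the 31 genes tested, 12 were higher in mitotic cells, 3 were lower and 16 did not pass, where 18.1% of all genes were higher and 19.9% lower. All 6 serine and one-carbon enzymes were higher, each in 6 of 6 libraries.

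Phgdh had the largest fold of the 31, with a log2 fold change of 2.17 (SE 0.18, edgeR adjusted p = 1.1e-07). It measured 52.0 CPM in mitotic and 10.9 CPM in other cells of WT at P6, 101 and 22.1 CPM of KO at P6, 28.4 and 4.40 CPM of WT at P10, and 40.5 and 13.1 CPM of KO at P10. With vehicle it measured 47.7 and 15.9 CPM, and with rapamycin 48.3 and 4.78 CPM. The mitotic level exceeded that of the other cells in each library. Psat1 followed with 1.92 (SE 0.15, edgeR adjusted p = 3.07e-08) and Mthfd2 with 1.56 (SE 0.15, edgeR adjusted p = 3.38e-07).

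Smaller differences were found for Mthfd1l (0.78), Shmt2 (0.65) and Psph (0.54). Of the synthetase group Aars (0.55), Cars (0.55), Eprs (0.36) and Tars (0.31) were higher in mitotic cells. Asns (0.30, edgeR adjusted p = 0.0306) and Atf5 (0.32, adjusted p = 0.0479) passed near the threshold. Asns, Atf5 and Tars lost the call when some single libraries were left out, with adjusted p up to 0.189, 0.226 and 0.248 without KO at P10, and in DESeq2 (0.101, 0.112 and 0.0796) and without the filter on low counts (0.197, 0.240 and 0.150). Without cells carrying other markers Asns (0.332) and Atf5 (0.170) lost it too. Gars did not pass (0.18, edgeR adjusted p = 0.0661), nor did Aldh18a1 (0.18, adjusted p = 0.505). Cebpb (-0.47), Ddit3 (-0.49) and Nupr1 (-0.57) were lower in mitotic cells, and the Nupr1 call was lost without KO at P6 (edgeR adjusted p = 0.107) or KO at P10 (0.0516), with at most 5% mitochondrial UMIs (0.0754) and in DESeq2 (0.0645). Without cells that carry markers of other types its difference was gone (0.0124, edgeR adjusted p = 0.988). Atf4 did not differ detectably (-0.01, SE 0.08, edgeR adjusted p = 0.951).

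**Figure D3:**
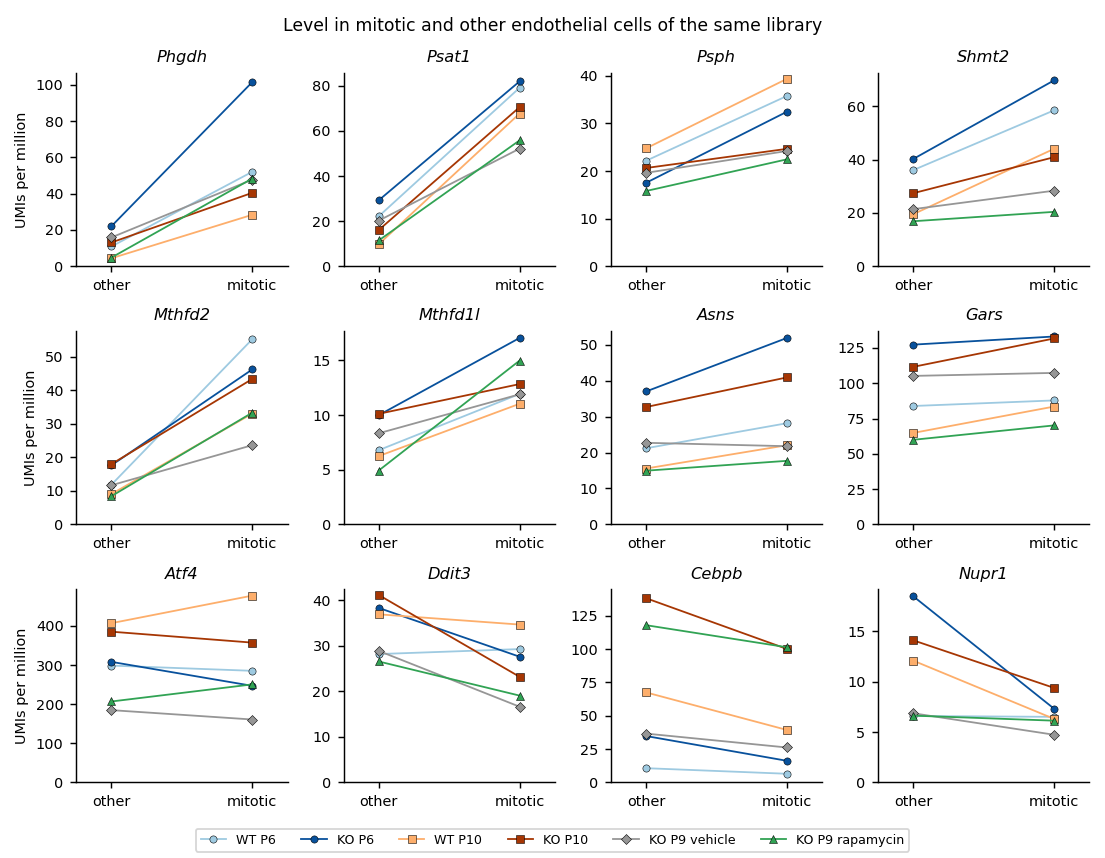
Level of selected genes in the other and in the mitotic endothelial cells of the same library, in CPM, with 1 line for each of the 6 libraries. Phgdh, Psat1 and Mthfd2 are higher in mitotic cells in every library, with fitted log2 fold changes of 2.17, 1.92 and 1.56. Cebpb and Nupr1 are lower in mitotic cells in every library.

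Since the share of mitotic cells differed within each pair, the ratios were recomputed without them. For Phgdh the log2 ratio went from 1.16 to 0.55 at P6 and from 1.58 to 1.02 at P10, and stayed near -1.5 at P9 (from -1.52 to -1.56). The genotype fold change of Phgdh was then 0.81 and no longer passed (edgeR adjusted p = 0.128). Without mitotic cells Phgdh, Gars (0.51) and Slc7a11 (-0.46) were no longer past 1.5-fold at P6, nor were Psat1 (0.33) and Cars (0.56) at P10. Psat1 went from 0.42 to -0.03 at P6, and Shmt2 from 0.22 to -0.06. In contrast, Asns, Gars and Cebpb still rose with genotype without mitotic cells. Aldh18a1 kept its fold change (1.06) but narrowly lost the call (edgeR adjusted p = 0.0537).

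**Figure D4:**
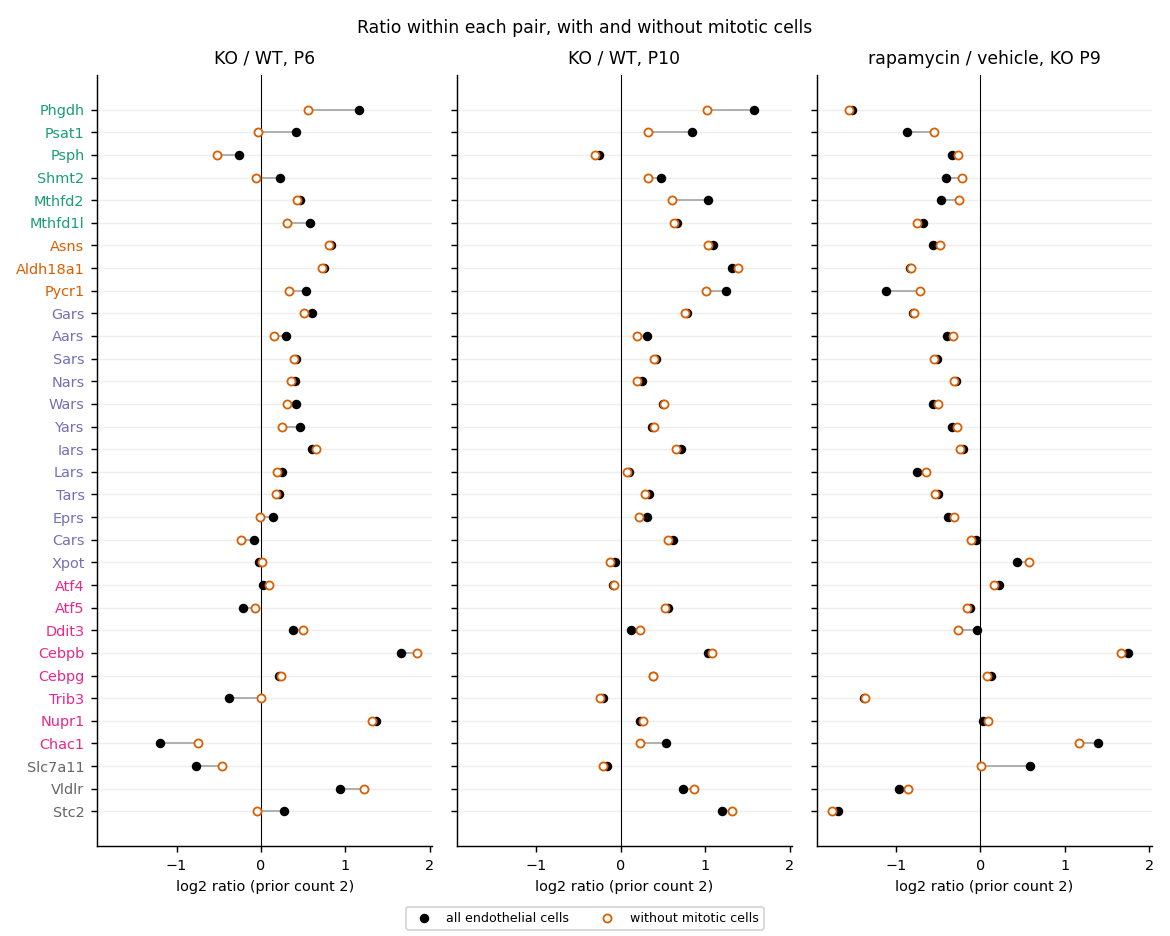
Log2 ratio (prior count 2) of each gene within each pair, over all endothelial cells (filled) and without mitotic cells (open). Phgdh and Psat1 move toward 0 at P6 and P10 without mitotic cells, while Phgdh at P9, Asns, Aldh18a1, Gars and Stc2 at P9 change little.

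The same ratios were taken within each class of cells. Among the other, non-mitotic cells, Phgdh in KO was 2.03 times WT (interval 1.60 to 2.58) at P6 and 2.98 times (2.33 to 3.84) at P10. These classes use thinned cells, whereas the removal above used every UMI and took out more cells. The other class thus keeps cells that the removal counted as mitotic. At P6, 6.21% of WT and 8.20% of KO cells were mitotic after thinning, against 14.1% and 19.6% over every UMI. Among mitotic cells the ratio was 1.95 (1.39 to 2.78) at P6 and 1.43 (0.849 to 2.53) at P10. Psat1 in the other cells was 1.32 times WT (1.10 to 1.58) at P6 and 1.65 times (1.37 to 1.98) at P10. With the fuller removal its log2 ratio was -0.03 at P6 and 0.33 at P10. In mitotic cells Psat1 stood at 1.04 times WT at both ages, with intervals that span 1. For Shmt2 the other cells gave 1.12 (0.962 to 1.29) at P6 and 1.40 (1.23 to 1.60) at P10.

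With rapamycin, Phgdh in the other cells stood at 0.301 times vehicle (0.240 to 0.374). In mitotic cells its ratio was 1.01 (0.773 to 1.31), on 71 UMIs with rapamycin. The 2 intervals do not overlap, but they cover counting error only and not the spread between cells. In the rapamycin library 17 of the 1603 endothelial cells held 40.1% of all Phgdh UMIs. Psat1 gave 0.566 (0.485 to 0.658) in the other cells and 1.07 (0.832 to 1.36) in mitotic cells, and Mthfd2 gave 0.722 (0.599 to 0.868) and 1.41 (1.004 to 1.95). Phgdh, Psat1 and Mthfd2 were thus lower with rapamycin in the other cells. In mitotic cells the intervals of Phgdh and Psat1 spanned 1, and that of Mthfd2 lay just above 1. Mthfd1l leaned the same way, with 0.591 (0.465 to 0.747) and 1.26 (0.749 to 2.03). This difference was not tested because each treatment is 1 library. Psph gave 0.806 (0.702 to 0.923) and 0.928 (0.619 to 1.35), with overlapping intervals. Shmt2 did not show it, with 0.788 (0.690 to 0.899) and 0.720 (0.473 to 1.06). Nor did Gars, with 0.570 (0.533 to 0.608) in the other cells and 0.653 (0.526 to 0.804) in mitotic cells. Cebpb was higher with rapamycin in both, at 3.22 and 3.87 times vehicle.

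Other genes of the pathway were counted in 7 lists. Among all genes 3.05% rose with genotype in edgeR and 1.69% fell. The amino acid transporters went against the enzymes in KO, with 3 of 7 tested falling in edgeR and 0 rising. Slc7a5 and Slc3a2, the subunits of the large neutral amino acid transporter, fell by 0.70 and 0.69 (edgeR adjusted p = 0.0389 for both), and the serine and alanine transporter Slc1a4 fell by 0.81 (adjusted p = 0.0187). In mitotic cells 4 of the 7 transporters were lower and 1 higher, where 19.9% and 18.1% of all genes were. With rapamycin 4 were higher past 1.5-fold and 0 lower, where 12.9% and 13.1% of all genes were. The part of mitotic cells in the transporter falls was not tested. Of 12 other ATF4 targets tested, Gdf15 (3.69), Eif4ebp1 (0.74) and Sesn2 (0.68) rose, 0 fell and 9 did not pass. Of 12 other cytosolic synthetases and their scaffold proteins, Vars (0.91), Aimp2 (0.64), Eef1e1 (0.62) and Mars (0.61) rose, 0 fell and 8 did not pass.

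In 4 further lists 0 genes passed for genotype in edgeR. They were 12 upstream genes such as the eIF2 kinases (3 at an unadjusted p under 0.05, all higher, where 12.9% of all genes were higher), 17 mitochondrial synthetases (0 at that p), 10 other one-carbon genes (4, all higher) and 17 endoplasmic reticulum chaperones and sensors (4, all higher). With rapamycin 7 of the 10 other one-carbon genes were lower past 1.5-fold and 1 higher, where 13.1% and 12.9% of all genes were. Among the lower ones was Tyms, which makes thymidylate, at 0.377 times vehicle. Of these 10 genes 6 were higher in mitotic cells and 1 lower, where 18.1% and 19.9% of all genes were. Mitotic cells were 15.96% with vehicle and 4.42% with rapamycin, and their part in this count was not tested.

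Cells with none of the 6 rule markers were few, from 13 (WT P10) to 375 (vehicle), but Phgdh was high in some of them. It measured 691 CPM in such cells of KO at P10 (35 UMIs in 19 cells) and 22.6 to 151 CPM in the other libraries. Astrocyte markers summed to 10212 CPM in those KO cells at P10 and to at most 1390 CPM in the other libraries, and astrocytes are a known site of Phgdh. The same KO cells also held oligodendrocyte markers at 4030 CPM, against at most 267 CPM in the other libraries. Their pericyte markers summed to 2844 CPM, against 5418 CPM in such cells of WT at P10. Which of these cells held Phgdh was not tested. Among endothelial cells the astrocyte sum was lower in KO than in WT at both ages, and at P9 it was 55.7 CPM with vehicle and 101 CPM with rapamycin. Without cells carrying markers of other types the Phgdh log2 ratio was 1.21 at P6, 1.80 at P10 and -1.56 at P9, as large as with them. That rule leaves cells with 1 marker of another type, and RNA from outside the cell, in place. The part of astrocyte RNA in the Phgdh differences was not tested.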

How the data were processed

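UMI counts per gene and cell barcode were used as the authors deposited them, made with Cell Ranger 6.0.1 against mm10, per the submitters' processing notes. Cells had been dissociated and sorted by flow cytometry before 3′ capture, per the labels' protocols, and the gate is not given in the sources used here. The members and lists were chosen with earlier results of these data known. All 32 genes are named, in other lists those that passed for genotype. Ddit3 was taken from ENSMUSG00000025408, since a second identifier with this symbol had 0 UMIs. Counts were summed over endothelial cells per library and tested with edgeR 4.0.16 in R 4.3.3 (TMM, filterByExpr, quasi-likelihood test, Benjamini-Hochberg adjustment over all 13165 or 13190 genes). The genotype and age comparisons used the 4 libraries of P6 and P10, and the P9 libraries had no WT partner. Whether each library stems from its own animals is not in the labels, and p-values then measure only the spread between these libraries, which may be technical. Log2 ratios within a pair used a prior count of 2, with exact conditional binomial intervals at 95% (scipy 1.17.1) that cover counting error only. No doublet caller was run. Coordinates are from GENCODE vM21 (GRCm38). The procedure was tested on simulated data. Alternatives were DESeq2 1.42.0, other scalings, filters, cell rules and libraries left out.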

Additional observations from a re-analysis of the deposited data

Results flagged for a closer look

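Chac1, which degrades glutathione, had KO to WT log2 ratios of opposite sign at the 2 ages, -1.19 at P6 and 0.54 at P10. The counting intervals exclude a ratio of 1 at both ages. The P6 ratio rests on 69 UMIs in WT and 25 in KO, and the P10 ratio on 66 and 109. Without mitotic cells the log2 ratios were -0.74 at P6 and 0.23 at P10. In the non-mitotic class set after thinning the P10 ratio was 1.32 with an interval that spans 1 (0.942 to 1.87). With 1 library per group the difference between the ages was not tested.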

How the results depend on the processing

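The genotype comparison is limited by 1 residual degree of freedom, and the pairs by 1 library a group. The labels carry no replicate numbers to pair samples by, and the fits hold age (genotype) or library (mitotic cells) as a term. Chac1, Pycr1, Stc2 and Vldlr are also limited by depth. Where no cause follows from fewer cells, genes or libraries, the cause was not tested.

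Of the listed genes, 5 rose with genotype. This became 8 with at most 5% mitochondrial UMIs, 3 without mitotic cells, 14 without the filter on low counts, 0 without the age term and 0 to 0 with each library left out. Over all genes 402 were higher and 222 lower. These became 717 and 447 with at most 5% mitochondrial UMIs, 1197 and 813 without the filter, 1 and 0 without the age term, and 2 to 23 and 0 to 2 with each library left out. The lower count was 359 without cells with markers of other types and 140 in DESeq2. For age, 2 listed genes rose and 6 fell. The rises became 4 with at most 5% mitochondrial UMIs and 4 without the filter, and the falls 1 without mitotic cells and 2 in DESeq2. Over all genes the age counts became 1077 and 801 (at most 5% mitochondrial UMIs), 1542 and 1096 (no filter) and 401 and 243 (DESeq2). At P6 the 2 genes lower past 1.5-fold became 1 without mitotic cells and 0 with a minimum of 100 UMIs. With that minimum all genes past 1.5-fold were 680 higher and 378 lower at P6, and 866 lower at P10.

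Signs turned for single genes. For genotype with a library left out and no age term, log2 fold changes were 0.158 for Chac1 when WT at P6 was left out. When KO at P6 was left out they were -0.0258 for Shmt2, 0.0682 for Xpot, 0.109 for Atf4, 0.0306 for Chac1 and 0.535 for Slc7a11. When WT at P10 was left out they were -0.0782 for Shmt2, -0.0208 for Tars, -0.124 for Cars, 0.119 for Xpot, 0.194 for Atf4, 1.39 for Slc7a11 and -0.146 for Stc2. When KO at P10 was left out they were -0.255 for Atf5 and -0.285 for Cebpb. For age, Chac1 gave 0.0392 with 4 of 6 endothelial markers and 0.0294 with at most 5% mitochondrial UMIs. Eprs gave 0.0313 without the 5% of cells with most UMIs, 0.0429 without mitotic cells and 0.00248 without the filter. Mthfd1l gave 0.0692 without mitotic cells and Lars -0.0120 with scaling by total UMIs. In the mitotic comparison Atf4 gave 0.00101 with at most 5% mitochondrial UMIs and 0.00166 with 2 of 12 markers. Without cells with markers of other types Aldh18a1 gave -0.0430, Xpot -0.0245, Cebpg -0.0828 and Nupr1 0.0124. Yars gave -0.0957 without the 5% of cells with most UMIs. Without the filter Yars gave -0.0163, Xpot -0.0140 and Cebpg -0.0300. With each library left out, mitotic fold changes ran from -0.0839 to 0.0501 (Atf4), -0.00271 to 0.353 (Aldh18a1), -0.0329 to 0.122 (Yars), -0.575 to 0.0644 (Slc7a11), -0.0692 to 0.226 (Xpot) and -0.0184 to 0.0794 (Cebpg).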
